A study of Mus musculus with 4 samples.

Results

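In 421 of 94023 measured tiles (0.448%), fixed stretches of 1 kb on the autosomes, DNA methylation differed between Sca1-BCL6Δ and wild-type mice by 25 percentage points or more in the same direction in haematopoietic stem and progenitor cells (HSPCs) and in mature B cells. Of these shared tiles, 274 were more methylated in Sca1-BCL6Δ cells of both types and 147 were less methylated. The opposite pattern, past 25 points in each cell type but with opposite signs, was found in 320 tiles (0.34%). A tile was measured if it held 10 or more summed CpG reads in each library, after CpGs with 50 or more reads in any library were left out. Its level was the sum of methylated reads over the sum of all reads at its CpGs. The shared tiles were chosen by these genotype differences, which are therefore described here and not tested.

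The wild-type mice were CBAxC57BL/6J. The Sca1-BCL6Δ mice, made in eggs of the same background, carried a loxP-flanked Bcl6 cDNA with IRES-eGFP under the Sca1 promoter together with mb1-Cre, which is driven from the Cd79a locus. By design the transgene is thus expressed in HSPCs and deleted in cells that switch on Cd79a, at the start of the B cell lineage. HSPCs were Sca1+Lin- cells of bone marrow and B cells were B220+ cells of peripheral blood, both isolated by flow sorting. Per the labels, DNA of 6 to 9 mice was pooled for each of the 4 combinations of genotype and cell type, which gave 1 library per group. The independent transgenic line behind each pool, the ages of the mice and whether wild-type mice carried Cre were not given in the labels. Genotype, pool and library cannot be told apart. Methylation at markers of the labelled cell types was not examined, because no gene annotation of build mm9 was used.

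Methylation of cytosines in CpG pairs is copied after each cell division by maintenance enzymes, so a state set in a progenitor can be carried into its descendants. Dense methylation at CpG-rich promoters is known to accompany stable silencing, while most CpGs outside such promoters are methylated in adult blood cells. BCL6 is a transcriptional repressor of germinal centre B cells. Reduced representation bisulfite sequencing (RRBS) reads the CpGs close to restriction sites, and an unmethylated cytosine is read as a thymine after conversion.

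The 4 libraries held 5513178 to 15526135 CpG reads, with a mean coverage of 5.45 to 10.98 reads per CpG. The wild-type HSPC library stood apart. At the 184092 CpGs with 98% methylation or more over 10 or more reads of the B cell libraries combined, its level was 83.1%, against 95.5% in Sca1-BCL6Δ HSPCs. Beside this, 15.7% of all measured tiles were higher in Sca1-BCL6Δ HSPCs by 25 points or more and 2.24% were lower, while in B cells 1.19% were higher and 1.57% were lower. Dividing wild-type HSPC levels by that library's mean at those CpGs changed the split of the shared tiles from 274 higher and 147 lower to 160 higher and 283 lower. The number with opposite signs was then 285. The levels of Sca1-BCL6Δ HSPCs were not rescaled. The split into higher and lower tiles thus changed with the scale given to 1 library, and its cause was not tested.

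At 2 of the shared tiles the difference lay at CpGs that could be placed in a gene's promoter, Prom2 and Bpnt1. Prom2 encodes a membrane glycoprotein of the prominin family, found on plasma membrane protrusions of epithelial cells. Bpnt1 encodes a phosphatase that removes a phosphate group from 3′-phosphoadenosine 5′-phosphate, a by-product of sulphation. Promoters were identified by the spacing of their covered CpGs, a step chosen after the data were seen, so Bpnt1, Otulin and Gm39329 were named after their values were seen. All CpGs read within a window of 300 bp, 7 or more, had to fall on CG letters of 1 RefSeq promoter of the same chromosome, within 5 Mb, with a neighbouring promoter at the same shift. Searched on a wrong chromosome, 23 promoters found a single place, against 6764 on their own. The bases upstream of the starts, from RefSeq (GRCm38.p6), are printed 5′ to 3′ on the strand of the gene, to show which CpGs the values belong to. Capitals mark CpGs that were read in at least 1 library. The Prom2 stretch is chr2:127541418-127541667 on the minus strand, and the Bpnt1 stretch is chr1:185331909-185332158 on the plus strand, both in GRCm38.p6.
Prom2: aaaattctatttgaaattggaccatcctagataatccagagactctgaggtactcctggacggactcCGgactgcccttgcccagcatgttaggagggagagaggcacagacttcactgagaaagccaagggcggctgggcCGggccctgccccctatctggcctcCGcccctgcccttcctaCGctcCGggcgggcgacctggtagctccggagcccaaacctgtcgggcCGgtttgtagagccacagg
Bpnt1: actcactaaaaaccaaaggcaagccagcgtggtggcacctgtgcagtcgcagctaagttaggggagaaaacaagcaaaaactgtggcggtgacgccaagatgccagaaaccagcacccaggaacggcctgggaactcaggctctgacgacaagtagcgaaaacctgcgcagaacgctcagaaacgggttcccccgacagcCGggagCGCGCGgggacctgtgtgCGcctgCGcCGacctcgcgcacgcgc

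At Prom2 the 7 matched CpGs were all in the shared tile chr2:127367001-127368000 (mm9). Over these CpGs, in HSPCs 13.1% of 61 wild-type and 57.1% of 28 Sca1-BCL6Δ CpG reads were methylated. In B cells the shares were 43.4% of 76 wild-type and 77.6% of 49 Sca1-BCL6Δ CpG reads. Methylation was higher in the Sca1-BCL6Δ library of both cell types, and within each genotype it was higher in B cells than in HSPCs. The CpG 84 bp upstream of the start was methylated in HSPCs in 1 of 10 wild-type and 6 of 9 Sca1-BCL6Δ reads, and in B cells in 12 of 19 wild-type and 8 of 11 Sca1-BCL6Δ reads. The order was not the same at every CpG: at the CpG 2 bp downstream of the start 1 of 13 B cell reads was methylated in wild type and 0 of 3 in Sca1-BCL6Δ. The CpG 183 bp upstream gave 12 methylated reads of 12 in Sca1-BCL6Δ B cells and was not read in the wild-type B cell library, so the libraries were not read at quite the same CpGs. Over the whole tile the level was 14.3% in wild-type and 55.2% in Sca1-BCL6Δ HSPCs, and 35.9% and 78.8% in B cells. The differences, 40.9 points in HSPCs and 42.9 points in B cells, stayed past 25 points when only CpGs covered in all 4 libraries were used and when the mean of CpG levels was used.

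**Figure D1:**
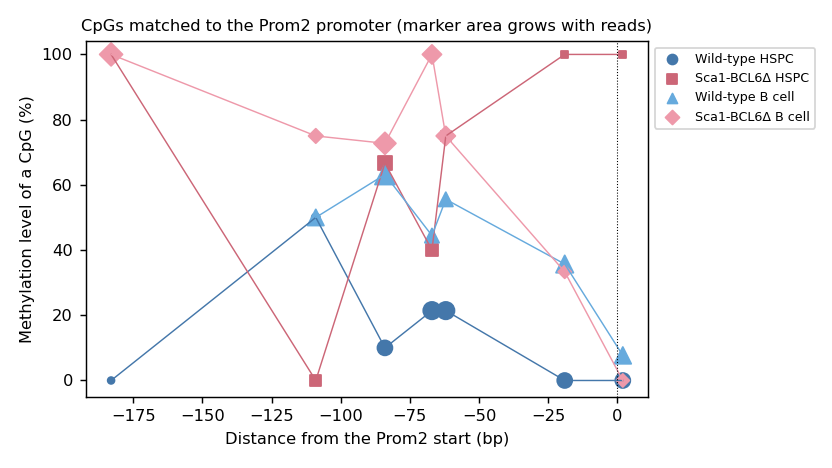
Methylation level in percent (vertical axis) of each CpG matched to the Prom2 promoter against its distance from the start in bp (horizontal axis), with 1 symbol per library and an area that grows with the reads. Wild-type HSPCs lie lowest at the CpG 84 bp upstream, with 1 methylated read of 10, and several Sca1-BCL6Δ points rest on few reads, among them the 2 HSPC points at 100% near the start.

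At Bpnt1 the shared tile chr1:187155001-187156000 (mm9) was less methylated in Sca1-BCL6Δ cells. Over the 8 matched CpGs, in HSPCs 30.4% of 46 wild-type and 2.0% of 51 Sca1-BCL6Δ CpG reads were methylated. In B cells the shares were 29.7% of 91 and 3.8% of 52. Of these CpGs 4 lay in the shared tile and the others just beyond its end, and neighbouring CpGs shared reads. The tile itself had 6 wild-type and 7 Sca1-BCL6Δ reads in HSPCs, and 10 and 7 in B cells, so the values rest on few reads. Matched promoter CpGs of 2 further shared tiles did not have the tile's signs in both cell types. Otulin encodes a deubiquitinase of linear ubiquitin chains, and its tile chr15:27560001-27561000 was higher in both cell types. Its matched CpGs had 12.1% in wild-type and 61.1% in Sca1-BCL6Δ HSPCs, but 11.6% and 0.0% in B cells. The Sca1-BCL6Δ values came from only 18 CpG reads in HSPCs, at most 3 at any CpG, and 10 in B cells. At Gm39329, an uncharacterised gene, of whose 13 matched CpGs only 3 lay in the shared tile, they had 23.2% in wild-type and 18.6% in Sca1-BCL6Δ HSPCs, and 16.1% and 20.8% in B cells. In all, 4 of the 421 shared tiles (0.95%) held a matched promoter, against 6056 of 94023 measured tiles (6.44%) and 2 of the 320 tiles with opposite signs. Only promoters with 7 or more CpGs could be matched, and 6729 of 31396 were, so a tile without a match may still hold a promoter.

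The tiles described next were named by a rule on size and depth: in each direction the 8 with the largest smaller-of-both difference among those with 3 or more CpGs covered in all 4 libraries, and the 5 largest among those with 30 or more CpG reads in each library. This gave 25 tiles. Coordinates are mm9, and no gene is assigned to them other than Prom2. Intervals are Wilson 95% intervals of CpG reads. They cover counting error only and are too narrow, because 1 read with several CpGs was counted several times, and no removal of PCR duplicates was recorded.

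Among deeply read tiles that were higher in Sca1-BCL6Δ cells, chr7:28042001-28043000 had the largest smaller-of-both difference. In HSPCs its level was 4.9% of 61 CpG reads in wild type (1.7 to 13.5%) and 53.8% of 52 in Sca1-BCL6Δ (40.5 to 66.7%). In B cells it was 54.3% of 116 in wild type (45.3 to 63.1%) and 92.4% of 66 in Sca1-BCL6Δ (83.5 to 96.7%). Its 10 CpGs formed 2 stretches more than 50 bp apart. The genotype difference was 51.5 and 50.4 points in the stretches in HSPCs, and 38.7 and 37.3 points in B cells. Reads methylated at every CpG were 1 of 19 in wild-type and 5 of 16 in Sca1-BCL6Δ HSPCs, and 8 of 37 and 17 of 20 in B cells. Reads unmethylated at every CpG numbered 18 and 4 in HSPCs and 7 and 0 in B cells.

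Among higher tiles with 3 or more CpGs covered in all 4 libraries, the largest smaller-of-both difference was at chr12:7903001-7904000. In HSPCs the level was 33.3% of 15 wild-type and 88.9% of 27 Sca1-BCL6Δ CpG reads, and in B cells 41.4% of 29 and 90.5% of 21. The differences were 55.6 points in HSPCs (25.4 to 75.1) and 49.1 points in B cells (22.7 to 66.4). Over the summed CpGs, wild-type cells of both types were intermediate here, and Sca1-BCL6Δ cells of both types were mostly methylated. The genotypes did not differ at every CpG: at position 7903689, 6 of 7 B cell reads were methylated in each genotype.

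At chr11:88033001-88034000 the level in HSPCs was 22.9% of 35 wild-type and 87.0% of 23 Sca1-BCL6Δ CpG reads, and in B cells 56.9% of 58 and 100% of 13. In Sca1-BCL6Δ B cells all 10 reads of this tile were fully methylated, while in wild-type B cells 24 of 43 were fully methylated and 19 fully unmethylated. Both states were thus present side by side in the wild-type pool, though these counts included reads with a single CpG. At chr9:4977001-4978000 the level was 53.1% of 32 CpG reads in wild-type HSPCs and 55.0% of 40 in B cells of that genotype, while every CpG read was methylated in Sca1-BCL6Δ cells of both types. The Sca1-BCL6Δ values there came from 11 and 12 CpG reads on only 3 reads each.

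At chr2:27994001-27995000 the level in HSPCs was 10.5% of 38 wild-type and 58.3% of 24 Sca1-BCL6Δ CpG reads, and in B cells 37.1% of 35 and 83.3% of 12. As at Prom2, B cells were above HSPCs within each genotype, by 26.6 points in wild-type and 25 points in Sca1-BCL6Δ mice. At chr5:149849001-149850000 it was 46.3% of 41 wild-type and 88.2% of 17 Sca1-BCL6Δ CpG reads in HSPCs, and 42.1% of 57 and 100% of 10 in B cells. At each of these tiles the Sca1-BCL6Δ B cell value came from only 4 reads. The genotype differences of all these higher tiles stayed past 25 points with CpGs covered in all 4 libraries alone and with the mean of CpG levels.

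Of the lower tiles, chr11:5907001-5908000 was among the deeply read ones. In HSPCs its level was 67.6% of 37 CpG reads in wild type (51.5 to 80.4%) and 32.4% of 37 in Sca1-BCL6Δ (19.6 to 48.5%), and in B cells 49.2% of 130 (40.8 to 57.7%) and 2.6% of 77 (0.7 to 9.0%). Of 38 reads in wild-type B cells 17 were fully methylated and 17 fully unmethylated, whereas of 18 in Sca1-BCL6Δ B cells 0 were fully methylated and 16 fully unmethylated. In HSPCs the contrast rested on 9 and 8 reads.

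Among lower tiles with 3 or more CpGs covered in all 4 libraries, chr2:60578001-60579000 had the largest smaller-of-both difference, -44.2 points in each cell type. In HSPCs its level was 68.0% of 25 wild-type and 23.8% of 21 Sca1-BCL6Δ CpG reads, and in B cells 90.9% of 66 and 46.7% of 15. Both of its stretches were past 25 points in both cell types. At chr2:118536001-118537000 all 24 CpG reads of wild-type HSPCs were methylated and 50% of 48 in Sca1-BCL6Δ HSPCs. In B cells the level there was 87.7% of 57 wild-type and 50% of 24 Sca1-BCL6Δ CpG reads. These values came from only 4 wild-type and 8 Sca1-BCL6Δ reads in HSPCs, and 10 and 4 in B cells.

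At chr14:48818001-48819000 the level in HSPCs was 42.1% of 38 wild-type and 9.8% of 51 Sca1-BCL6Δ CpG reads, and in B cells 61.1% of 90 and 25% of 40. At chr8:72610001-72611000 it was 71.4% of 14 and 17.4% of 23 in HSPCs, and 39.1% of 23 and 0.0% of 11 in B cells. At chr3:37806001-37807000 it was 83.3% of 12 and 40% of 10 in HSPCs, and 95.8% of 24 and 50% of 10 in B cells, so the Sca1-BCL6Δ values rest on few reads. These lower tiles also stayed past 25 points under both other ways of setting the level.

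The other 12 named tiles fell below 25 points in at least 1 cell type, or lost the depth to be measured, under 1 of those ways. At chr5:119171001-119172000, the named tile with the most reads in its shallowest library, the level in HSPCs was 69.9% of 73 wild-type and 20.3% of 123 Sca1-BCL6Δ CpG reads, and in B cells 76.2% of 105 and 36.5% of 85. The difference in B cells was -39.7 points over summed reads and -16.8 points as the mean of CpG levels. Most Sca1-BCL6Δ reads there fell on 3 neighbouring CpGs, where wild-type levels were above Sca1-BCL6Δ levels in both cell types. Each other CpG of the tile had at most 2 reads in a Sca1-BCL6Δ library, and these were mostly methylated. At chr5:108417001-108418000 the level was 45.6% of 57 wild-type and 0.0% of 15 Sca1-BCL6Δ CpG reads in HSPCs, and 51.7% of 58 and 8.0% of 25 in B cells. Its difference in B cells was -43.7 points over summed reads and -13.5 points with CpGs covered in all 4 libraries alone. A single CpG, methylated in 23 of 26 reads in wild-type B cells, was read 1 time in Sca1-BCL6Δ B cells and not at all in Sca1-BCL6Δ HSPCs. As the mean of CpG levels, the HSPC and B cell differences were 4.0 and 0.5 points at chr11:102941001-102942000, 1.9 and 8.8 at chr2:25128001-25129000, 6.1 and 7.7 at chr14:54874001-54875000, and -0.5 and -1.8 at chr13:21533001-21534000.

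Over all shared tiles the levels lay between the extremes in wild-type cells. Median levels of the 274 higher tiles were 41.4% in wild-type and 80% in Sca1-BCL6Δ HSPCs, and 53.8% and 89.5% in B cells. For the 147 lower tiles they were 62.5% and 28.6% in HSPCs, and 65.9% and 30% in B cells. Over all measured tiles they were 68.4% and 86.7% in HSPCs, and 89.8% and 90% in B cells. Wild-type levels of 20 to 80% in both cell types were seen in 220 of the 274 higher and 98 of the 147 lower tiles, and in 13.8% of all measured tiles. The rule itself bounds the wild-type levels, since a difference of 25 points must fit between 0 and 100%. In higher tiles they reached at most 72.2% in HSPCs and 75% in B cells. In lower tiles they were at least 26.7% in HSPCs and 27.3% in B cells. In 64 higher tiles the Sca1-BCL6Δ level was 90% or more in both cell types, and in 16 lower tiles it was 10% or less in both. Only 9 higher tiles started from 10% or less in wild-type cells of both types, and 7 lower tiles from 90% or more.

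**Figure D2:**
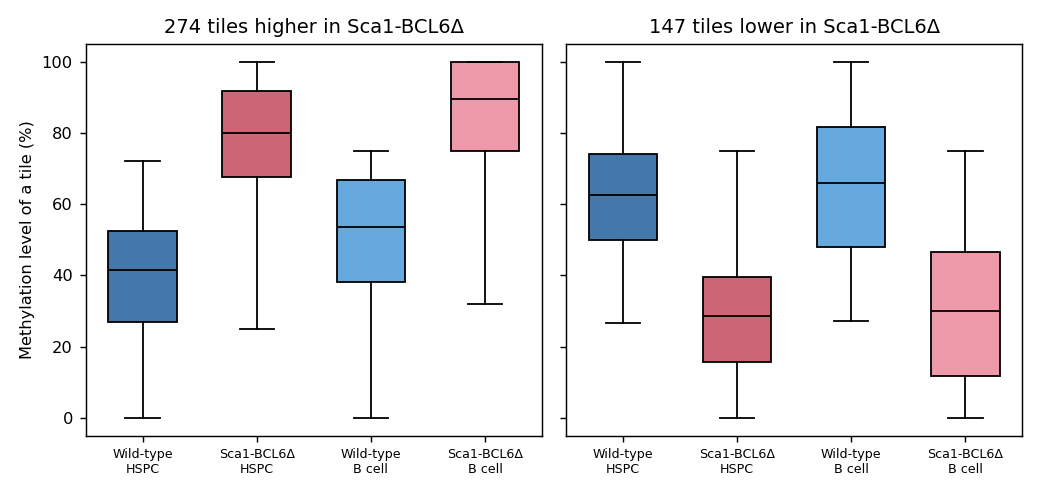
Methylation level in percent (vertical axis) of the 274 higher tiles (left) and the 147 lower tiles (right) in the 4 libraries. Boxes span the quartiles with the median as a line, and whiskers reach the lowest and highest tile; medians of higher tiles are 41.4% and 80% in HSPCs and 53.8% and 89.5% in B cells, and the distance between genotypes was set by the selection.

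Single reads with 2 or more CpGs were mostly of one state. In higher tiles 20.2% of such reads were fully methylated in wild-type and 62.7% in Sca1-BCL6Δ HSPCs, and 26.8% and 71.6% in B cells. In lower tiles the shares were 51.5% and 18.5% in HSPCs, and 51.4% and 22.0% in B cells. Reads with both states made up 15.9 to 28.5% in the shared tiles, 17.5 to 25% in tiles with opposite signs and 11.7 to 17.2% in other measured tiles. The number of reads, as opposed to CpG reads, was small: in the shallowest library a shared tile had a median of 10 reads, 251 of the 421 tiles had 10 or more in every library, and 19 had under 5 in at least 1.

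Within the tiles, 663 of 848 CpGs with 3 or more reads in all 4 libraries (78.2%) differed in the tile's direction in both cell types. In tiles with opposite signs the share was 82.0% (580 of 707). In 62 shared tiles 2 or more stretches more than 50 bp apart, each with 5 or more CpG reads in every library, could be compared. Their signs were the same throughout in 37, and in 8 every stretch was past 25 points in both cell types. For tiles with opposite signs these numbers were 51, 31 and 9. Beside chr7:28042001-28043000 and chr2:60578001-60579000, these included chr1:3660001-3661000, picked after its values were seen, where the level was 38.0% of 100 wild-type and 2.6% of 38 Sca1-BCL6Δ CpG reads in HSPCs, and 38.6% of 83 and 8.0% of 50 in B cells. They also included chr5:129245001-129246000, picked likewise, where the stretches differed by 37.0 and 53.6 points in HSPCs and by 31.2 and 65.0 points in B cells.

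Sharing between cell types was set against the opposite signs. The HSPC and B cell differences have no library in common. Of the 14723 tiles higher in Sca1-BCL6Δ HSPCs, 1.86% were also higher in B cells and 1.64% were lower there. Of the 2106 tiles lower in Sca1-BCL6Δ HSPCs, 6.98% were also lower in B cells and 3.75% were higher. Over all measured tiles 1.19% were higher and 1.57% lower in B cells, and among the 2106 tiles both shares were above these. The shared tiles were 0.448% of all measured tiles, with 0.291% higher and 0.156% lower, and the tiles with opposite signs 0.34%. No replicate library gives the spread against which these shares could be judged.

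**Figure D3:**
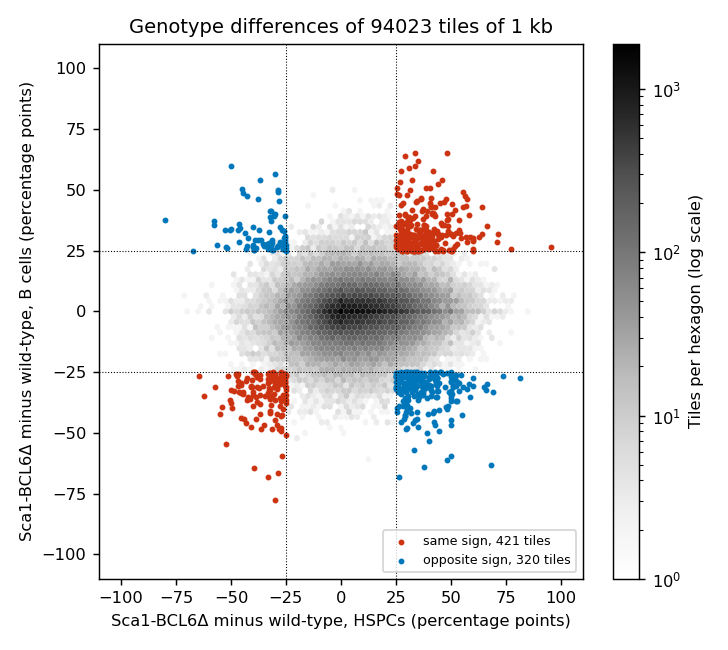
Sca1-BCL6Δ minus wild-type methylation in B cells (vertical axis) against that in HSPCs (horizontal axis), in percentage points, for 94023 tiles; grey hexagons give the number of tiles on a log scale and dotted lines mark 25 points. The 421 shared tiles (red) and the 320 tiles with opposite signs (blue) lie at the edge of 1 cloud that is shifted to the right.

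Shared tiles were mostly shallow. Of those whose lowest library had 10 to 14 CpG reads, 272 of 33447 tiles were shared and 194 had opposite signs. At 15 to 19 reads there were 80 shared and 69 opposite tiles, at 20 to 29 reads 43 and 38, and at 30 to 49 reads 23 and 14. At 50 reads or more, 3 of 16462 tiles were shared and 5 had opposite signs. From the shallowest to the deepest class, the share was 0.813% and 0.0182% for shared tiles and 0.58% and 0.0304% for opposite tiles, lower at greater depth for both signs. The median shared tile had 4 CpGs in both directions, against 5 over all measured tiles, and 13 CpG reads in its shallowest library, against 18.

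**Figure D4:**
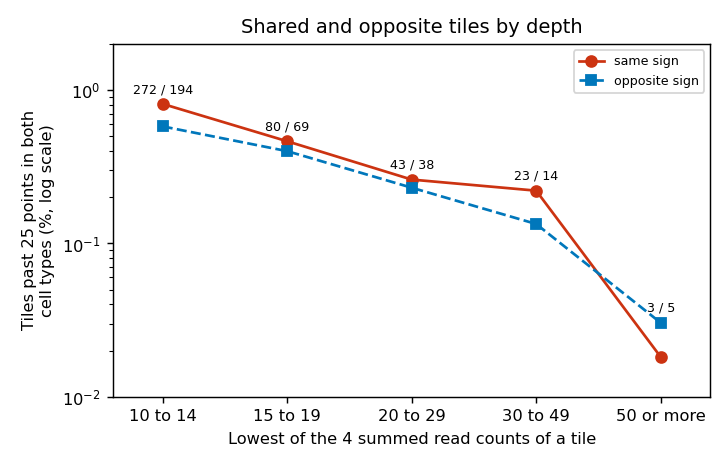
Share of tiles past 25 points in both cell types (vertical axis, percent, log scale) by the lowest of the 4 summed CpG read counts (horizontal axis), with the same sign (circles) and with opposite signs (squares); labels give the numbers of shared and opposite tiles. Both shares are lower at greater depth, and at 50 reads or more 3 tiles are shared and 5 are opposite.

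Values near the threshold were common. Just inside it lay tiles with differences in HSPCs and B cells of -40 and -25, of 35.66 and 25, and of 27.78 and 25 points. Just outside lay tiles with 25.60 and 24.97, with -24.90 and -25, and with -24.90 and -35.67 points. The smaller of both differences was between 25 and 30 points in 237 of the 421 shared tiles, and 561 further tiles had it between 20 and 25 points.

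The step from HSPCs to B cells was also read at these tiles, in the same libraries that chose them. In wild-type mice B cells differed from HSPCs by 25 points or more, either way, in 53 of the 274 higher tiles (19.3%) and 14 of the 147 lower tiles (9.52%), beside 17.5% of all measured tiles. In Sca1-BCL6Δ mice the numbers were 32 (11.7%) and 16 (10.9%), beside 5.76% of all tiles. Over both directions these were 67 of 421 shared tiles (15.9%) in wild-type mice, and 48 (11.4%) where the mice were Sca1-BCL6Δ. The shares of all tiles were not matched for depth or level. The median shared tile had 13 CpG reads in its shallowest library, against 18 over all tiles, and wild-type levels were mostly intermediate. The wild-type shares also rest on the HSPC library that stood apart in level. Tiles with opposite signs are no comparison here, since they must differ between cell types in at least 1 genotype.

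The shared tiles were spread over all 19 autosomes. Chromosome 12 had the highest share, with 22 of 3723 measured tiles (0.591%), then chromosome 5 with 41 of 7160 (0.573%) and chromosome 11 with 39 of 7053 (0.553%). The lowest share was on chromosome 18, with 8 of 2965 (0.27%). Of 504 windows of 5 Mb, 237 held at least 1 shared tile, and the most in 1 window was 7. Those windows were 135 to 140 Mb of chromosome 5, 100 to 105 Mb of chromosome 11 and 95 to 100 Mb of chromosome 15, with 531, 616 and 532 measured tiles. They held 1, 3 and 0 tiles with opposite signs, whose own highest number in a window was also 7. The directions were mixed: 2 of the 7 tiles on chromosome 5 were higher, 6 on chromosome 11 and 5 on chromosome 15. Only 1 pair of shared tiles was adjacent, at chr4:133592001-133594000, and its tiles differed in direction. The first was lower in Sca1-BCL6Δ cells and the second was higher, by 60 points in HSPCs and 28.8 points in B cells.

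**Figure D5:**
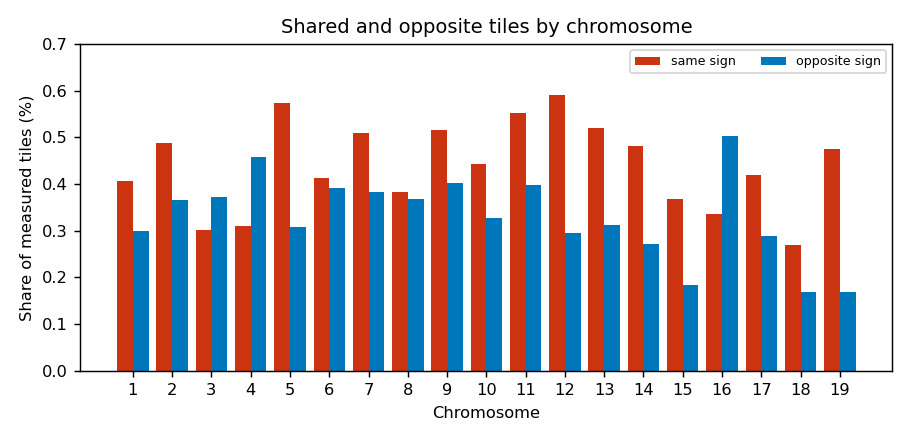
Share of measured tiles in percent (vertical axis) that were shared (red) or had opposite signs (blue) on each of the 19 autosomes (horizontal axis). Shared tiles range from 0.27% on chromosome 18 to 0.591% on chromosome 12, and on chromosomes 3, 4 and 16 opposite tiles are the more frequent.

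Beyond the tile itself, the signs of measured neighbours were close to those of all tiles, except in tiles that directly adjoined lower tiles. Shared tiles were left out as neighbours. Among measured tiles that directly adjoined a higher tile, 27 of 82 (32.9%) were above wild-type in both cell types, against 31.9% of all tiles. Directly next to lower tiles 15 of 59 (25.4%) were below wild-type in both, against 15.4% of all tiles, and 15.6% at 2 to 10 kb. A directly adjoining tile can hold CpGs of reads that also reach into the shared tile, so it is not independent of it. At Bpnt1, for example, closely spaced matched CpGs lay on both sides of the tile's end. How many adjoining tiles held such reads was not counted.

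CpGs read in 1 genotype alone were also counted. Of 1441257 autosomal CpGs, 259 had at least 5 reads in each of the Sca1-BCL6Δ libraries and no read from wild-type cells, and 10520 the reverse. A CpG read in Sca1-BCL6Δ alone lay within 1000 kb of 13.3% of the shared tiles, 7.5% of the tiles with opposite signs and 9.12% of all measured tiles. Within 10 kb the shares were 0.713%, 0.0% and 0.303%. For CpGs read in wild-type alone they were 13.3%, 14.1% and 12.4% within 10 kb, and 99%, 98.8% and 98.8% within 1000 kb. The window of chromosome 5 at 135 to 140 Mb held 26 CpGs read in Sca1-BCL6Δ alone, and those of chromosomes 11 and 15 held 0 and 3. Such CpGs were unevenly placed, and most windows of 5 Mb held none. The window of chromosome 19 at 20 to 25 Mb held 38, and 0 of its 117 measured tiles were shared. The window of chromosome 5 at 125 to 130 Mb held 23, and 4 of its 379 measured tiles were shared. Why these CpGs were read in 1 genotype alone, and their part in the shared differences, was not tested.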

How the data were processed

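RRBS of 4 pooled libraries was analysed, 1 per combination of genotype and cell type, grouped from the labels. The DNA had been digested by TaqI and MspI, size-selected, bisulfite-converted and amplified, per the labels' protocols. Per the submitters' methods text, an in-house Zymo Research pipeline aligned the reads to the 36-bp ends of predicted fragments, without gaps, and its version is not given in the sources used here. The build was mm9, per the submitters' processing notes. The authors deposited, for each CpG, methylated and total read counts and a score of the mean methylation, and for each read the percent of its CpGs methylated and a count of its CpGs.

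Counts were summed over tiles of 1 kb. CpGs with 50 or more reads in any library were left out, because such pile-ups can dominate a tile, and 10 or more CpG reads were required per library. Reads were assigned to the tile of their first CpG. Counts of fully methylated and fully unmethylated reads at a single tile included reads with a single CpG. Wilson 95% intervals cover counting error only. With 1 library per group no test was made. The tiles, gene list and rules were chosen with earlier results of these data known. A rule for naming genes and a list of cell type markers needed an mm9 annotation and were not used; promoters were matched by CpG spacing instead, after the data were seen. The scripts were tested on simulated data. Alternatives were other minimum reads, caps, thresholds, grids, CpG sets and level definitions, and wild-type HSPC levels rescaled. Python 3.11.15, numpy 2.4.6, pandas 2.3.3, scipy 1.17.1 and matplotlib 3.10.9 were used.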

Additional observations from a re-analysis of the deposited data

Results flagged for a closer look

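HSPCs and B cells differed in the sign of the genotype difference in 320 tiles that passed 25 points in both cell types. In 241 of them methylation was higher in Sca1-BCL6Δ HSPCs and lower in Sca1-BCL6Δ B cells, and in 79 it was the other way round. With wild-type HSPC levels rescaled, these numbers were 137 and 148. The difference between the cell types was not tested, since each group is 1 library.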

How the results depend on the processing

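The numbers of shared and opposite tiles, 421 and 320, moved with the minimum reads, the threshold and the number of CpGs. They were 421 and 320 with no cap or a cap of 100 reads, 405 and 317 with a cap of 30, 439 and 317 on a grid shifted by 500 bp, 422 and 331 in tiles of 500 bp, and 400 and 274 in tiles of 2 kb. With a minimum of 5, 20, 30 and 50 reads, 1370, 69, 26 and 3 tiles were shared and 1173, 57, 19 and 5 were opposite. With 20, 30, 40 and 50 points, 986, 184, 32 and 1 were shared and 808, 125, 18 and 3 opposite. With at least 3 or 5 CpGs covered in all 4 libraries, 225 and 68 were shared and 175 and 58 opposite. The mean of CpG levels gave 681 shared and 586 opposite tiles, and 229 of the 421 shared tiles (54.4%) passed under it. With CpGs covered in all 4 libraries alone 310 (73.6%) passed. Under both, a combination chosen after seeing the data, 172 (40.9%) passed, 117 higher and 55 lower, against 154 of 320 opposite tiles (48.1%). Shared tiles were fewer than opposite ones at 50 reads and at 50 points. Of the 50 differences of the 25 named tiles, 15 left their counting interval with the mean of CpG levels. With CpGs covered in all 4 libraries alone 1 of the 46 that could be measured did so, and without a cap none changed. None changed sign under these alternatives. The tiles chr15:100274001-100275000 and chr17:46746001-46747000 could not be measured with CpGs covered in all 4 libraries alone.

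Windows of 1 Mb held at most 3 shared tiles. Neighbours of lower tiles had the tile's signs in 15.6% at 2 to 10 kb and 16.4% at 10 to 100 kb. Shared tiles near a CpG read in Sca1-BCL6Δ alone made up 0.713% within 10 kb and 13.3% within 1000 kb, and near one read in wild-type alone 13.3% and 99%, the last beside 98.8% of all measured tiles. No paired analysis was possible because each group is 1 pooled library, and no replicate could be left out.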

Other observations

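On the X chromosome, outside the selection, the same limits gave 17 shared tiles of 1270 measured (1.34%), 4 higher and 13 lower in Sca1-BCL6Δ, and 14 with opposite signs. The sex of the pooled mice was not given in the labels.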
